A study of Mus musculus with 125 samples.

Results

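Open chromatin of endothelial nuclei from the hearts of young mice, in the group labelled P6, was compared with that of nuclei from the whole heart at the same age. The comparison used 4 peak lists, 2 titled heart endothelial and 2 titled heart input, of 66 ATAC-seq libraries in the series. Because the lists differed in length, the 72110 peaks with the highest −log10 q were taken from each, which is the length of the shortest list. Peaks of the 4 libraries that shared at least 1 bp were merged into 117383 regions. A region with a peak in both endothelial libraries and in neither input library is called endothelial-only, and the reverse input-only. There were 24659 endothelial-only regions, 21.0% of all regions, and 24877 input-only regions, 21.2%. A further 32643 regions, 27.8%, held a peak in all 4 libraries. With all deposited peaks in place of equal numbers, there were 17907 endothelial-only and 39743 input-only regions.

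Per the labels' protocols, postnatal mice received tamoxifen under the skin at 0.015 mg/kg on postnatal days 1 and 3, and only tissue with green fluorescent protein (GFP) in its vessels was processed. The input group is described by the same text, so both groups share the GFP reporter and the drug. That text places the collection on postnatal day 7, while the age label reads P6, which is used throughout for the group. Libraries of 2 other ages are used further on. For those labelled E12, dams received the same dose into the peritoneum at E10.5 and embryos were taken at E12.5, and adult mice received it by that route 7 days before collection. The strain, the promoter behind the reporter and the number of hearts in each preparation are not given in the sources used here. The protocol text ends before any step that separates endothelial from other nuclei, so the endothelial label is set below only against marker genes. Nothing in the labels says whether the 2 libraries of a group came from separate animals.

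ATAC-seq uses a transposase that cuts where DNA is not wrapped tightly around nucleosomes, and reads pile up over active promoters and over distal elements such as enhancers. Endothelial cells line vessels. In the heart they form the capillary bed that hands fatty acids to the muscle, the coronary arteries and veins, the lymphatics and the endocardium that lines the chambers. Whole-heart nuclei also come from cardiomyocytes, fibroblasts, mural cells around vessels, epicardium, blood cells and nerves, and include endothelial nuclei. In such bulk samples, fewer nuclei of a type and less open chromatin per nucleus cannot be told apart.

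The sequences below are promoters at which the libraries separated. They are the 250 bases before the transcription start of the 3 vessel genes and the 3 genes of other heart cells whose promoter overlapped a region of one side with the highest −log10 q, taken from RefSeq on GRCm38.p6, the build called mm10. Each is written 5′ to 3′ on the strand of its gene. Capitals mark matches on either strand to short words that families of transcription factors are known to bind. For ETS factors the word was AGGAAG, and for the zinc fingers of the GATA family it was AGATAA. The SOX word was ACAATG, the word of the KLF family was CACCC, and forkhead (FOX) factors had TGTTTAC. Muscle MEF2 factors had TATTTATA, while T-box (TBX) factors had AGGTGTG. The word searched for TEAD factors was GGAATG, the one for NKX homeobox factors was AAGTGG, and the cyclic AMP response element (CRE) was TGACGTCA. In Rgs4 an ETS word and a KLF word lie end to end, and no word was found in the Ppargc1a stretch. The first 3 are endothelial-only and the last 3 input-only.
Egfl7, chr2:26583615-26583864, plus strand: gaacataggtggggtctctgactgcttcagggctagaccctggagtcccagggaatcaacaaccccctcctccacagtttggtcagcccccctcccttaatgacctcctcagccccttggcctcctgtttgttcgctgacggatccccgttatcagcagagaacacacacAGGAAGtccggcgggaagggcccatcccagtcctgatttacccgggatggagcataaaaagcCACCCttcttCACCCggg
Rasip1, chr7:45627287-45627536, plus strand: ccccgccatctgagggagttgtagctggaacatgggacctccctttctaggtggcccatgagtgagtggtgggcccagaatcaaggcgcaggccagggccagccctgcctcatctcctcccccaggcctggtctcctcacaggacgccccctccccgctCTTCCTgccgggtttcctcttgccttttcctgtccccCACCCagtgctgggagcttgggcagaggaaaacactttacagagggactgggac
Emcn, chr3:137340828-137341077, plus strand: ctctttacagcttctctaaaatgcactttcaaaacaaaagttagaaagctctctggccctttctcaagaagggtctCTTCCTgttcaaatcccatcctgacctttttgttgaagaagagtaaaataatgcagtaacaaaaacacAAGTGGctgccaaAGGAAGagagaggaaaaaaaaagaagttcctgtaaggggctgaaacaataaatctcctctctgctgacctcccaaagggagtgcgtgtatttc
Rgs4, chr1:169747643-169747892, minus strand: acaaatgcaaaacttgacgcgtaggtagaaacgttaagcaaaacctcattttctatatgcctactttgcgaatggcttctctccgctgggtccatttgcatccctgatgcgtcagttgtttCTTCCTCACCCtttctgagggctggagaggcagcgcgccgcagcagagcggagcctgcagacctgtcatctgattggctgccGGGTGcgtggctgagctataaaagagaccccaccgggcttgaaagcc
Ppargc1a, chr5:51567726-51567975, minus strand: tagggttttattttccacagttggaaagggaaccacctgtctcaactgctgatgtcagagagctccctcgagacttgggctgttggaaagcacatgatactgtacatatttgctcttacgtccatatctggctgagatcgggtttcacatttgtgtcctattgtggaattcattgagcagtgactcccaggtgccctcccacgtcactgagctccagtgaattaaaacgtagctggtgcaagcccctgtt
Irx4, chr13:73260247-73260496, plus strand: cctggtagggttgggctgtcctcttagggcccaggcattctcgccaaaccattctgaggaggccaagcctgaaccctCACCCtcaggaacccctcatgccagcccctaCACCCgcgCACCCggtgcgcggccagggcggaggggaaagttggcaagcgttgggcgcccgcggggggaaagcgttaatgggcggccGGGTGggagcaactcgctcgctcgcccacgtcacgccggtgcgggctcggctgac

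Egfl7 encodes a matrix protein secreted by endothelial cells. Its promoter region, chr2:26583432-26584306, had a fold over local background of 3.45 and 3.18 in endothelial libraries 1 and 2, and weaker peaks of 2.41 and 2.90 in input libraries 1 and 2 that ranked below the top 72110. The ETS word starts 80 bases before the start. Egfl7 also had an input-only region within 1 kb of a start, so it stands on both sides. Rasip1, needed for vessels to open a lumen, had folds of 3.70 and 3.13 in the endothelial libraries at chr7:45626904-45627697 and 2.83 and 2.63 in the input lists. Emcn, the endothelial sialoglycoprotein endomucin, had 4.52 and 4.03 at chr3:137340726-137341823 against 2.87 and 2.63. At all 3 promoters both endothelial folds lay above both input folds. The promoters were chosen by peak ranks in these same libraries, so this order is a description and no separate result. All 3 regions had a peak in at least 2 endothelial libraries of each of the 5 other P6 organs.

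The 3 input-only promoters had no peak in either P6 heart endothelial list. Since 94.5% and 100% of those lists had been taken, this nearly follows from the choice of input-only regions. Rgs4, a regulator of G protein signalling found in mural cells, had folds of 6.12 and 7.93 in the input libraries at chr1:169747461-169747860. That region had a peak in 3 of 4 E12 heart endothelial libraries and in 2 or more endothelial libraries of 3 other P6 organs. Ppargc1a, a coactivator that drives mitochondrial biogenesis, had 4.28 and 4.13 at chr5:51567657-51568724, and was found in 1 other organ by the same measure. Irx4, a homeobox factor of the ventricle, had 2.62 and 2.86 at chr13:73260184-73260826 and was found in none.

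The 4 lists were made from 19.3 M tags left after duplicates in endothelial library 1, 31.3 M in library 2, 46.2 M in input library 1 and 28.4 M in input library 2. They held 76326, 72110, 106111 and 98672 peaks. Equal numbers of peaks did not mean equal stringency. The weakest peak taken had a −log10 q of 1.77 and 1.00 in the endothelial libraries and of 4.45 and 3.81 in the input libraries, and the first peak left out had the same rounded value where a list was longer. Over the taken peaks the median fold was 4.15, 3.76, 4.13 and 4.48 in that order. All 4 alignments carried the same read-processing name in the file headers.

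Replicates resembled each other far more than they resembled the other source. The regions of endothelial libraries 1 and 2 had a Jaccard index (shared regions over all regions of either) of 0.763, and input libraries 1 and 2 one of 0.783, while an endothelial and an input library shared 0.348 to 0.373. Regions with a peak in 1 library alone made up 5.54% and 4.99% of all regions for endothelial libraries 1 and 2. For input libraries 1 and 2 they made up a further 5.55% and 4.49%. With 2 libraries against 2 the smallest 2-sided permutation p is 0.33, and the membership itself was set by these lists, so the values of the 4 libraries are described and not tested.

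**Figure D1:**
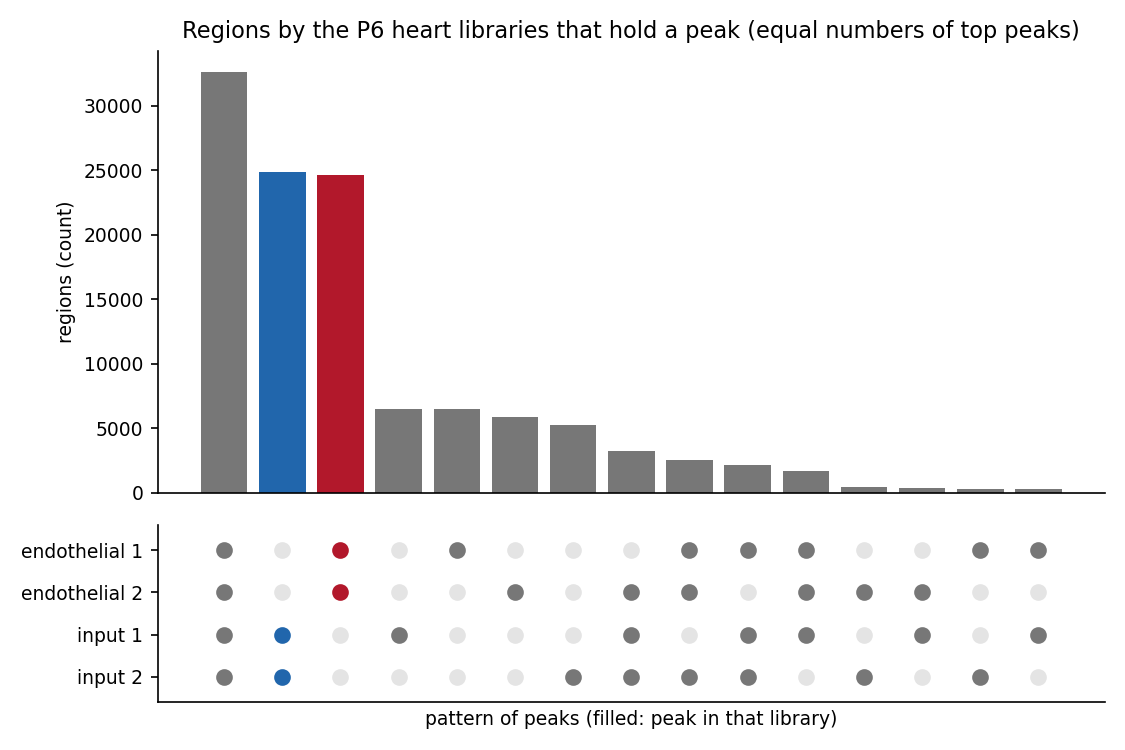
Number of merged regions (vertical axis) for each pattern of peaks among the 4 P6 heart libraries (dots under each bar, filled where that library has a peak). The 3 tallest bars are regions in all 4 libraries (32643), input-only regions (24877, blue) and endothelial-only regions (24659, red), and each of the other patterns holds at most 6518.

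Both one-sided classes lay mostly away from promoters. Endothelial-only regions had a median width of 465 bp and lay a median of 30.9 kb from the nearest start of a protein-coding gene, with 3.81% within 1 kb of a start, 52.6% inside a gene and 43.6% between genes. Input-only regions were similar, with 449 bp, 37.8 kb, 3.54%, 54.2% and 42.3%. Regions open in all 4 libraries were wider, 842 bp, and closer to starts, with a median of 9.12 kb and 36.4% within 1 kb. Starts came from a RefSeq promoter table for 79.9% of 21887 protein-coding genes. For the others, among them Pecam1 and Cdh5, the table used gives no strand and both ends of the gene were taken, so a place at a start may be the gene's far end. The nearest gene names a position and was not shown to be the target.

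The top 72110 took 94.5% and 100% of the endothelial lists but 68.0% and 73.1% of the input lists, so weaker peaks below it could be found mainly on the input side, and the shares that follow are not comparable between classes. In the full lists 23.5% of endothelial-only regions had a weaker peak in input library 1 and 21.3% in input library 2, with median folds of 2.66 and 2.96. Of input-only regions 1.88% had a weaker peak in endothelial library 1, and 0% in library 2.

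The 10 endothelial-only regions with the highest −log10 q, taking the lower of the 2 endothelial libraries, lay between genes in 9 of 10 cases. The first lay nearest to Srcin1 at chr11:97585936-97586399 with folds of 10.6 and 9.58 in the endothelial libraries and weaker input peaks of 3.29 and 3.52. The region at chr3:52383228-52383862, 115 kb from the start of Foxo1, a factor that restrains endothelial growth, had 8.99 and 8.01 against 2.63 and 2.91. The region at chr6:125529393-125530071 near Vwf, the clotting factor stored in endothelial granules, had 7.17 and 6.71 against 2.74 and 3.13. All 10 had a weaker peak in at least 1 input library, and all 10 had a peak in both adult heart endothelial libraries. The adult heart input library also had a peak in 8 of the 10, and the E12 heart input library in 4 of the 10. In 6 of 10, Foxo1 and Vwf included, at least 2 endothelial libraries of each of the 5 other P6 organs also had a peak. Over all endothelial-only regions 22.8% had a peak in both adult heart endothelial libraries and 11.3% in all 5 organs. The adult and E12 heart input libraries held 16.5% and 35.7% of them. At the other end was a region inside Lnx1, an ubiquitin ligase gene, at chr5:74679355-74680230, with folds of 7.16 and 6.54. It had a peak in 2 or more endothelial libraries of no other P6 organ and in none of the 4 E12 heart endothelial libraries, but in both adult ones.

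The 10 input-only regions with the highest −log10 q had a peak in neither adult heart endothelial library. This nearly holds for the whole class, since 0.193% and 0.310% of all input-only regions had a peak in adult heart endothelial libraries 1 and 2. The first lay nearest to C1rb at chr6:124592276-124592697 with folds of 11.6 and 12.6 in the input libraries. A region inside Hs3st5, a heparan sulfate sulfotransferase gene, at chr10:36627827-36628421 had 9.12 and 10.3. A weaker endothelial peak was present in 1 of the 10, near Ctdsp2, with a fold of 2.82 in endothelial library 1. All 10 had a peak in the adult heart input library and 8 of 10 in the E12 heart input library, while 9 of 10 had a peak in 2 or more endothelial libraries of no other P6 organ. Over all input-only regions these shares were 43.8%, 68.2% and 72.8%, so the counts of 8 and 9 are not far from the whole class.

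Across all protein-coding genes, 38.9% were nearest to at least 1 endothelial-only region and 40.8% to at least 1 input-only region. More endothelial-only than input-only regions lay nearest to 24.1% of genes, and the reverse held for 25.5%. An endothelial-only region lay within 1 kb of a start in 4.08% of genes and an input-only region in 3.96%. These shares are the background for the counts that follow.

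The 10 genes with the most endothelial-only regions held 26 to 36 of them. Kdr, the VEGF receptor that drives vessel growth, had 27 endothelial-only regions and 1 input-only region. Mecom, a zinc finger factor of endothelial and blood stem cells, had 32 and 2, and Efnb2, the ephrin that marks arteries, had 32 and 13. Tcf4, a bHLH factor, had 35 and 6, Magi1, a junction scaffold, 27 and 11, Prkce, a protein kinase C, 28 and 12, Tcf7l2, an effector of Wnt signalling, 27 and 9, and Plpp3, a lipid phosphatase, 26 and 8. Zfp608 had 36 and 16. Adgrl2, an adhesion receptor, ranked high on both sides with 34 and 30.

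Genes with the most input-only regions included Ppargc1a, with 27 input-only regions and 1 endothelial-only region. Efna5, an ephrin, had 36 and 8, Ntm, an adhesion protein of neurons, 27 and 5, Ptprd, a receptor phosphatase, 24 and 1, and Pik3r1, a PI3-kinase subunit, 23 and 14. Tbl1xr1 had 26 and 19. Nfib, with 27 and 26, and Myc, with 24 and 22, had nearly as many regions of either side. Long genes and genes with long empty flanks gather more regions, so these counts compare sides within a gene and not genes with each other.

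The endothelial label was held against marker lists. Of 96 genes in 6 vessel lists, 94 were nearest to an endothelial-only region, beside the 38.9% of all genes, and 62 to an input-only region, beside 40.8%. These genes had 646 endothelial-only and 187 input-only regions, with a median of 5 against 1, where the median over all genes is 0 on both sides. More endothelial-only than input-only regions lay at 77 genes, fewer at 11 and equal numbers at 8.

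All 27 endothelial surface and junction genes were nearest to an endothelial-only region, with 194 such regions against 45 input-only. Pecam1, the platelet endothelial adhesion molecule, had 10 and 0, Emcn 17 and 0, Cd93 10 and 0, Ptprb, the phosphatase of the VE-cadherin complex, 11 and 0, and Flt1, the decoy VEGF receptor, 13 and 2. The highest-ranked Kdr region, chr5:76013808-76014669, lay 35.4 kb from the start with folds of 6.11 and 5.05 in the endothelial libraries and weaker input peaks of 3.05 and 3.17. A region inside Flt1 at chr5:147721399-147721960, 4.05 kb from the start, had 3.75 and 3.51 and no peak in either input list. The order was reversed at Robo4, with 1 endothelial-only region and 2 input-only, at Mmrn2, with 2 and 3, and at Nos3, with 1 and 3. Cdh5, which encodes VE-cadherin, had 13 and 7. Within 1 kb of an end of Cdh5 a peak was present in all 4 libraries, with folds of 3.41, 2.54, 3.0 and 3.39.

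Of 23 endothelial transcription factor genes, 22 were nearest to an endothelial-only region, and the same 22 had more of them than of input-only regions, 198 against 40 in all. Ets1, an ETS factor, had 21 and 6, Foxo1 18 and 2, Fli1, another ETS factor, 12 and 0, and Sox17, an arterial factor, 8 and 0. A region near Hhex, a homeobox factor, at chr19:37481572-37482184 had folds of 8.05 and 7.71 against weaker input peaks of 2.33 and 2.86. Foxc2 had no region of either side. Single strong input-only regions lay near such genes as well. One at chr6:88140004-88140728, 53.2 kb from the start of Gata2, had folds of 7.02 and 9.95 in the input libraries and no peak in either endothelial list.

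All 13 heart capillary genes were nearest to an endothelial-only region, with 62 such regions against 11. Pparg, a receptor that senses fatty acids, had 9 and 0, with a region 10.2 kb from its start at chr6:115411275-115411908 of fold 7.87 and 8.05 and no input peak. That region had a peak in 2 or more endothelial libraries of 1 other P6 organ. Gpihbp1, the anchor that carries lipoprotein lipase across the capillary wall, had 3 and 0, and Aqp1, a water channel, 9 and 1. Cd36, the fatty acid receptor, went the other way with 1 and 2. Fabp4, a fatty acid binding protein, had regions of both sides less than 1 kb from 1 of its ends. A region inside Btnl9 at chr11:49183123-49183632, 3.46 kb from the start, had 5.36 and 4.61 and a weaker peak of 2.90 in input library 2 alone.

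All 8 endocardial genes were nearest to an endothelial-only region, with 49 against 18. Nfatc1, the factor required for the cushions of the heart valves, had 12 and 2, Npr3, the natriuretic peptide clearance receptor, 8 and 1, and Nrg1, the growth factor that endocardium sends to muscle, 10 and 6. The highest-ranked Npr3 region, chr15:11734559-11735272, had folds of 6.30 and 5.25 and no input peak. It had a peak in all 4 E12 heart endothelial libraries, in neither adult one and in 2 or more endothelial libraries of no other P6 organ. A Cytl1 region 4.04 kb from its start, chr5:37730604-37731483, had 4.80 and 3.94, was open in 3 of 4 E12 and 1 of 2 adult libraries, and was in no other organ by that measure. Plvap, the diaphragm protein of fenestrated vessels, had a region at an end of the gene, chr8:71511404-71512106, with 5.38 and 3.48, that was found in all 5 other organs.

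Arterial genes numbered 16 of 16 with an endothelial-only region, 104 regions against 40, and venous and lymphatic genes 12 of 13, with 59 against 35. Dll4, the Notch ligand of arteries, had 4 and 0, Notch1 8 and 0, and Jag1, a further ligand, 13 and 5. More input-only regions lay at Gja5, an arterial connexin, with 2 and 3, at Hey2, with 2 and 4, and at Cxcl12, a chemokine, with 7 and 8. Nr2f2, the factor of vein identity, had 2 and 5, Prox1, the lymphatic factor that cardiomyocytes also use, 9 and 11, and Reln 1 and 5. The Prox1 region at chr1:190085693-190086081, 83.4 kb from the start, was input-only with folds of 7.87 and 10.0. Pdpn was the list gene with no endothelial-only region.

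**Figure D2:**
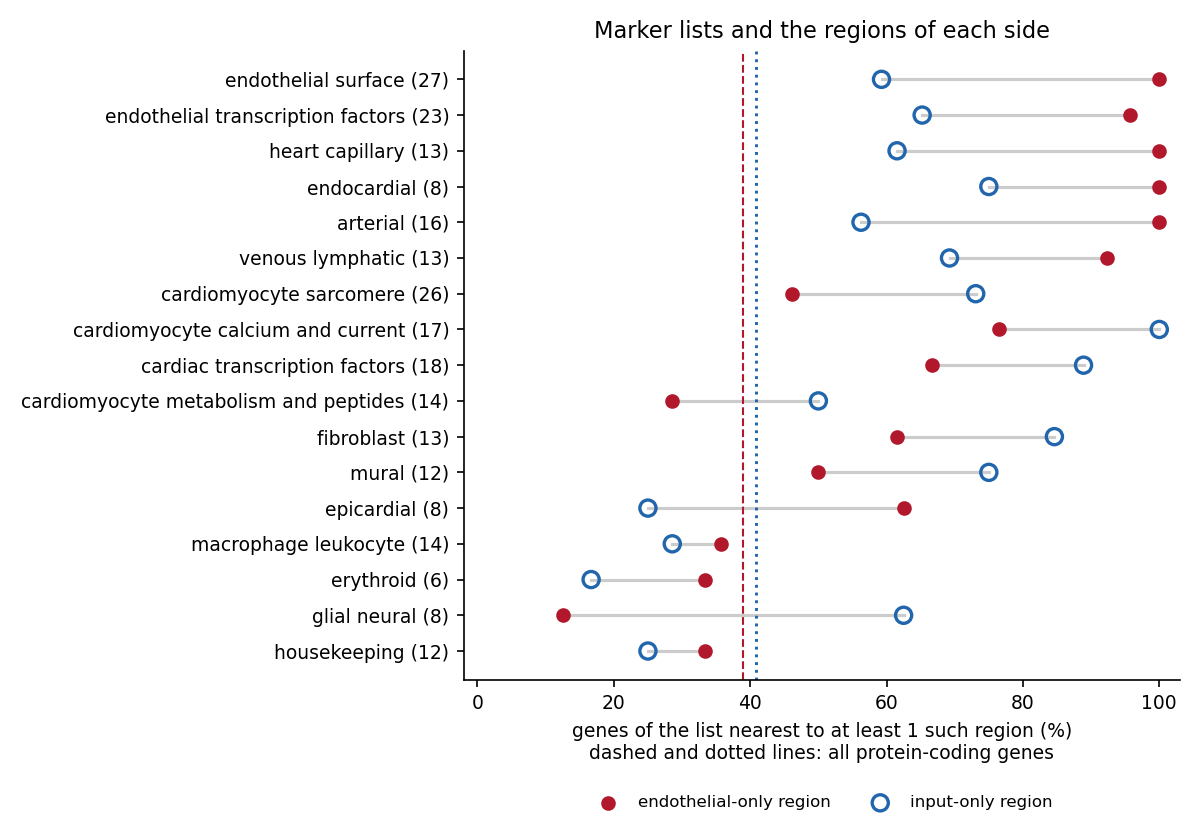
Share of the genes of each marker list (number of genes in parentheses) that were nearest to at least 1 endothelial-only region (filled red) or input-only region (open blue), with the shares over all protein-coding genes as lines (38.9% dashed, 40.8% dotted). The 6 vessel lists lie at the right for endothelial-only regions, and cardiomyocyte, fibroblast, mural and glial lists have the blue point to the right of the red.

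Of 136 genes in 10 lists of other heart cells, 91 were nearest to an input-only region and 68 to an endothelial-only region, with 438 against 209 regions and medians of 1 and 0.5. More input-only regions lay at 69 genes, more endothelial-only at 23 and equal numbers at 44. All 17 genes of calcium handling and ion currents had an input-only region, and 13 of them an endothelial-only one, 137 against 64 regions in all. Cacna1c, the L-type calcium channel, had 21 input-only and 3 endothelial-only regions, Ank2, which anchors channels, 17 and 3, Slc8a1, the sodium-calcium exchanger, 13 and 4, and Trdn, triadin, 6 and 0. The order was reversed at 3 genes of this list. Gja1, the gap junction connexin of working muscle, had 9 input-only and 16 endothelial-only regions, Kcnq1, a potassium channel, 11 and 13, and Atp2a2, the calcium pump of the reticulum, 1 and 2. The highest-ranked Trdn region, inside the gene at chr10:33092436-33092803, had folds of 5.67 and 6.31 in the input libraries and no endothelial peak.

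Cardiac transcription factors had an input-only region in 16 of 18 cases and an endothelial-only one in 12, with 141 against 50 regions. Myocd, the myocardin coactivator, had 13 and 0, Irx4 10 and 0, Esrrg, a factor of oxidative metabolism, 20 and 6, and Hand2 9 and 1. Regions of both sides lay near Mef2c, 13 and 7, and Gata6, 11 and 9, and the order was reversed at Esrrb, a nuclear receptor, with 3 and 10, and at Mef2a, with 5 and 6. Sarcomere genes had an input-only region in 19 of 26 cases and an endothelial-only one in 12, 60 against 25 regions, with Myom2, an M-band protein, at 7 and 1, Actn2, the Z-disc actinin, at 5 and 0, and Ttn, titin, at 6 and 1. Sarcomere genes with more endothelial-only regions were Tnnt2, Tnni1, Tpm1 and Myom1, by 1 or 2 regions each, and 7 had equal numbers. Fibroblast genes had an input-only region in 11 of 13 cases and an endothelial-only one in 8, 36 against 23 regions. More input-only regions lay at 7 fibroblast genes and more endothelial-only at 3. Postn, periostin, had 8 and 2, while Fbn1, fibrillin, had 3 and 7, Pdgfra 3 and 4 and Col1a2, a collagen chain, 2 and 3. Mural genes had an input-only region in 9 of 12 cases and an endothelial-only one in 6, 18 against 10 regions. More input-only regions lay at 8 mural genes, and Pdgfrb, the pericyte receptor, alone went the other way, at 0 and 3. Of 14 genes of muscle metabolism and heart peptides 7 had an input-only region and 4 an endothelial-only one, and of 12 housekeeping genes 3 and 4. Their input-only shares were 50.0% and 25.0%, beside 40.8% of all genes.

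Of 8 epicardial genes 5 were nearest to an endothelial-only region and 2 to an input-only one, of 14 macrophage and leukocyte genes 5 and 4, and of 6 erythroid genes 2 and 1. Shares of the latter lists, 35.7% and 33.3% for endothelial-only regions, lay below the 38.9% of all genes, and 10 of the 14 macrophage genes had equal numbers. Wt1, a factor known from the epicardium, had 10 endothelial-only regions and 0 input-only. Its highest-ranked one, inside the gene at chr2:105146460-105146990, had folds of 5.48 and 4.74, was open in both adult heart endothelial libraries and in no E12 one. Tbx18, another epicardial factor, had 2 endothelial-only and 7 input-only regions. Spi1, the master factor of myeloid cells, had an endothelial-only region less than 1 kb from 1 of the gene's ends, chr2:91082865-91083326, with folds of 6.03 and 4.90, that recurred in the endothelial libraries of all 5 other organs. A region 18.9 kb from Tyrobp and another 554 kb from the start of Ptprc, its nearest gene, recurred in the same way. Ptprc had 6 regions of each side, and C1qa 0 endothelial-only and 1 input-only. With Csf1r, a growth factor receptor of macrophages, 4 of the 14 genes were nearest to a region in the endothelial libraries of all 5 other organs, beside 9.27% of all genes.

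Marker promoters of other cells gave the following levels. Of 14 macrophage and leukocyte genes, 9 and 11 had no promoter peak in endothelial libraries 1 and 2, and 10 had none in each input library. Of all 21887 protein-coding genes, 8339 and 8379 had none in the endothelial libraries, and 7350 and 7567 had none in the input libraries. The summed promoter fold of the macrophage and leukocyte list was 18.9 and 11 in the endothelial libraries and 11.6 and 11.2 in the input libraries. Cd68, Cx3cr1 and Adgre1 had no promoter peak in any of the 4, and C1qb and C1qc had one in endothelial library 1 alone, with folds of 3.02 and 3.48. Of 6 erythroid genes, 2 had no promoter peak in each endothelial library and 3 in each input library, with summed folds of 18.2 and 16.3 against 12.5 and 13.2. How much such nuclei contribute to the endothelial-only regions was not tested.

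Promoters of muscle genes were open on both sides. A top peak lay within 1 kb of the start of 21 and 22 of the 26 sarcomere genes in the endothelial libraries and of 23 in each input library. Of all 21887 protein-coding genes, 13365 and 13508 had one in the endothelial libraries, and 13509 and 13507 in the input libraries. The summed fold of the sarcomere list was 86.1 and 82.4 against 89.2 and 97.6. Myh6, the main myosin of the heart, had promoter folds of 3.86 and 3.73 in the endothelial libraries and 2.85 and 3.11 in the input libraries. The pileup there, the number of overlapping tags with no scaling for depth, went the other way, at 24.1 and 36.5 against 164 and 136. Ttn had pileups of 13.6 and 21.7 against 81.7 and 83.3. At Cdh5, where either end of the gene was counted, the pileups were 133 and 124 against 61.6 and 45.4. Over all 12864 genes with a promoter peak in all 4 full lists, both input pileups lay above both endothelial pileups in 60.4%, and both endothelial pileups above both input pileups in 6.26%. All 21 sarcomere genes with 4 such peaks had the input pileups above. Of 76 vessel genes 44 had the endothelial pileups above, 10 the input pileups and 22 overlapped. By list the endothelial pileups were above in 20 of 22 surface genes and 14 of 22 transcription factor genes, and in 5 of 9 capillary, 3 of 6 venous and lymphatic, 4 of 15 arterial and 1 of 6 endocardial genes. The input pileups were above in 6 of the arterial genes. Hey2, a repressor downstream of Notch, was among the 6 with 47.7 and 63.4 against 111 and 96.1. No endothelial peak was present at the promoters of Myl7, an atrial light chain, Irx4, Tbx5 or Ppargc1a. The sources of the shared muscle promoter peaks were not tested. All 12 housekeeping genes were nearest to a region open in all 4 libraries, beside 65.0% of all genes.

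At starts, 29 of the 96 vessel genes had an endothelial-only region within 1 kb, beside 4.08% of all genes, and 3 an input-only region, beside 3.96%. Of the 136 genes of other heart cells 15 had an input-only region there and 5 an endothelial-only one. In 8 of the 29, among them Pecam1, Ptprb, Vwf, Selp and Lyve1, neither input list had any peak within 1 kb of a start. In 10 of the 15, among them Pdgfra, Rgs5 and Cnn1, neither endothelial list had one. The endothelial lists were taken almost whole and the input lists were not, so these counts are not comparable between sides. Pecam1, Ptprb, Vwf and Lyve1 are among the genes with no known start, for which either end of the gene was counted. How much this adds to the 29, beside the share of all genes, was not tested. Vwf had a fold of 4.49 in both endothelial libraries, Pecam1 4.07 and 3.58, Selp, the P-selectin that catches leukocytes, 3.6 and 3.71, and Lyve1, a hyaluronan receptor of lymphatics, 5.19 and 3.64. Pdgfra, the fibroblast receptor, had 2.86 and 3.42 in the input libraries, and Rgs5, a mural marker, 3.72 and 4.04. At Erg, where another peak within 1 kb was open in all 4 libraries, the highest-ranked peaks had overlapping folds of 4.04 and 3.52 against 3.46 and 4.17. Both input folds lay above both endothelial folds at Esam, Nos3, Tmem100 and Fabp4. Nos3, for example, had 3.63 and 3.56 against 4.33 and 4.23. Esam, Nos3 and Tmem100 also had a region open in all 4 libraries within 1 kb, and Fabp4 an input-only one.

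**Figure D3:**
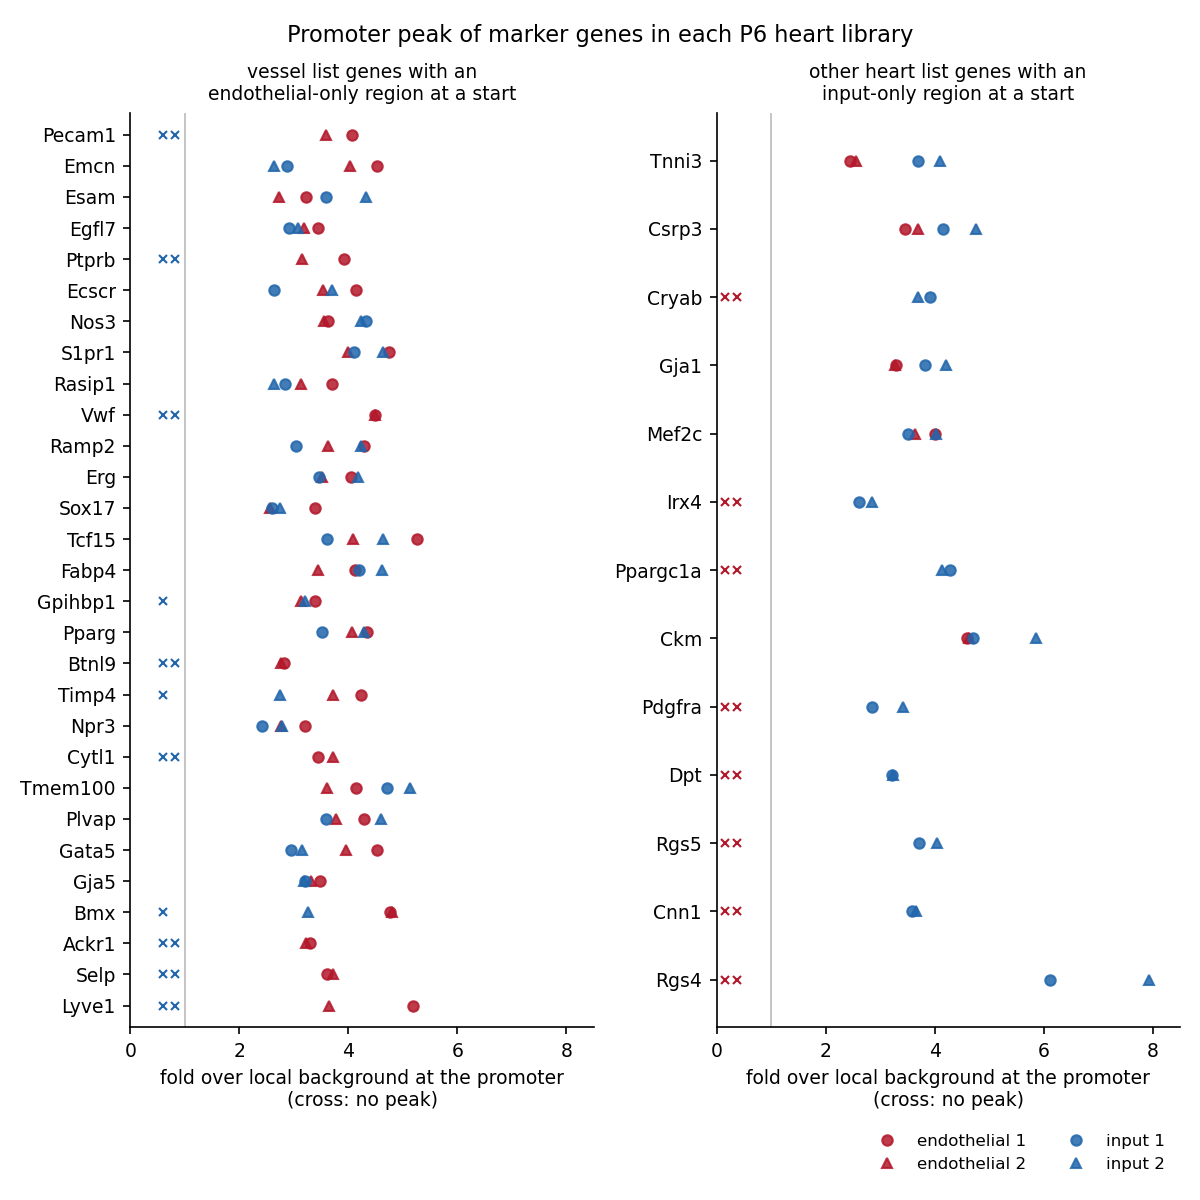
Fold over local background of the strongest peak within 1 kb of a start in each of the 4 P6 heart libraries (red endothelial, blue input, circle replicate 1, triangle replicate 2), for 29 vessel genes (left) and 13 of the 15 genes of other heart cells (right), with crosses at the left edge for libraries with no peak, whose position carries no value. At genes that also have a region open in all 4 libraries within 1 kb, such as Erg and Nos3, the peak shown need not be the endothelial-only one. Both input libraries lack a peak at 8 of the 29 genes, and both endothelial libraries at 8 of the 13 plotted. These counts are not comparable, because the endothelial lists were taken almost whole and the input lists were not.

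The promoters were searched for the words given above. Of 398 promoter stretches that overlapped an endothelial-only region, 192 held the ETS word on either strand, 48.2%. The share was 25.0% of 380 stretches at input-only regions, 26.4% of 11400 at regions open in all 4 libraries and 28.7% of all 21045 stretches. The median GC content of these 4 classes was 54.8%, 56.4%, 61.2% and 55.6%. Stretches with no peak in any library were poorer in GC, 47.2%, and 31.1% of them held the word. The KLF word was about equally frequent on both sides, at 65.6% and 63.2%, as was the GATA word, at 11.3% and 8.95%. The MEF2 word, named for factors of muscle genes, was rare, at 1.01% and 2.63% with 1.52% of all promoters. Among vessel-list promoters that overlapped an endothelial-only region, 9 of 12 held the ETS word, and Bmx, Gata5 and Npr3 did not. Among promoters of the other lists at input-only regions 1 of 7 held it, that of Rgs4. Promoters of chromosomes 18 and Y were left out.

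**Figure D4:**
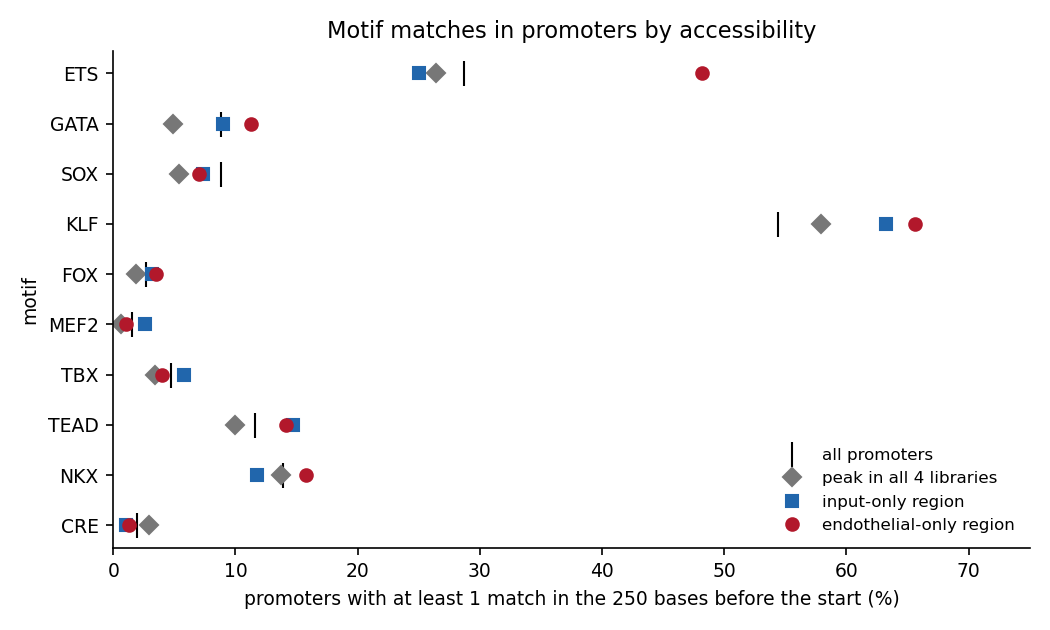
Share of promoter stretches (250 bases before a start) with at least 1 match to each motif, for all promoters (black tick), those at regions open in all 4 libraries (grey), at input-only regions (blue) and at endothelial-only regions (red). ETS is the motif with the widest gap, at 48.2% of endothelial-only against 25.0% of input-only promoters.

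Libraries that played no part in choosing the regions gave a test. In each of 26 P6 libraries of brain, kidney, liver, lung and retina, the share of the heart's endothelial-only regions that held one of its top 27160 peaks was counted. The share was 15.9% ± 7.07 (SD, n = 12) in endothelial libraries and 3.55% ± 1.92 (SD, n = 14) in input libraries. Averaged over organs the difference was 13.6 percentage points, higher in endothelial libraries in 5 of 5 organs, with an exact 2-sided permutation p within organs of 4.17e-06, the smallest that 240000 partitions can give (1.25e-05 after Benjamini-Hochberg adjustment over 6 tests). It was 18.5 points in liver, 17.6 in kidney, 16.8 in lung, 9.89 in brain and 5.11 in retina. With all deposited peaks the order changed, to 31.0 in liver, 28.7 in retina, 24.1 in kidney, 18.1 in brain and 8.27 in lung. The sources then overlapped in kidney, with 35.0% in the lower endothelial and 40.2% in the highest input library, and in brain, with 14.7% and 19.9%. Lung input libraries had the highest input shares, 6.80 to 7.16%, and brain endothelial library 2, at 6.61%, stood below the other two of brain, at 14.3 and 14.7%.

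Input-only regions went the other way. Their share was 1.98% ± 1.48 (SD, n = 12) in endothelial libraries and 5.66% ± 1.09 (SD, n = 14) in input libraries, a difference of −3.83 points with the same exact permutation p of 4.17e-06 and lower in endothelial libraries in 5 of 5 organs. The size of these differences depends on how many peaks are taken. For endothelial-only regions it was 22.0 points with all deposited peaks and 5.73 with the top 15000, and for input-only regions −12.1 and −1.58.

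**Figure D5:**
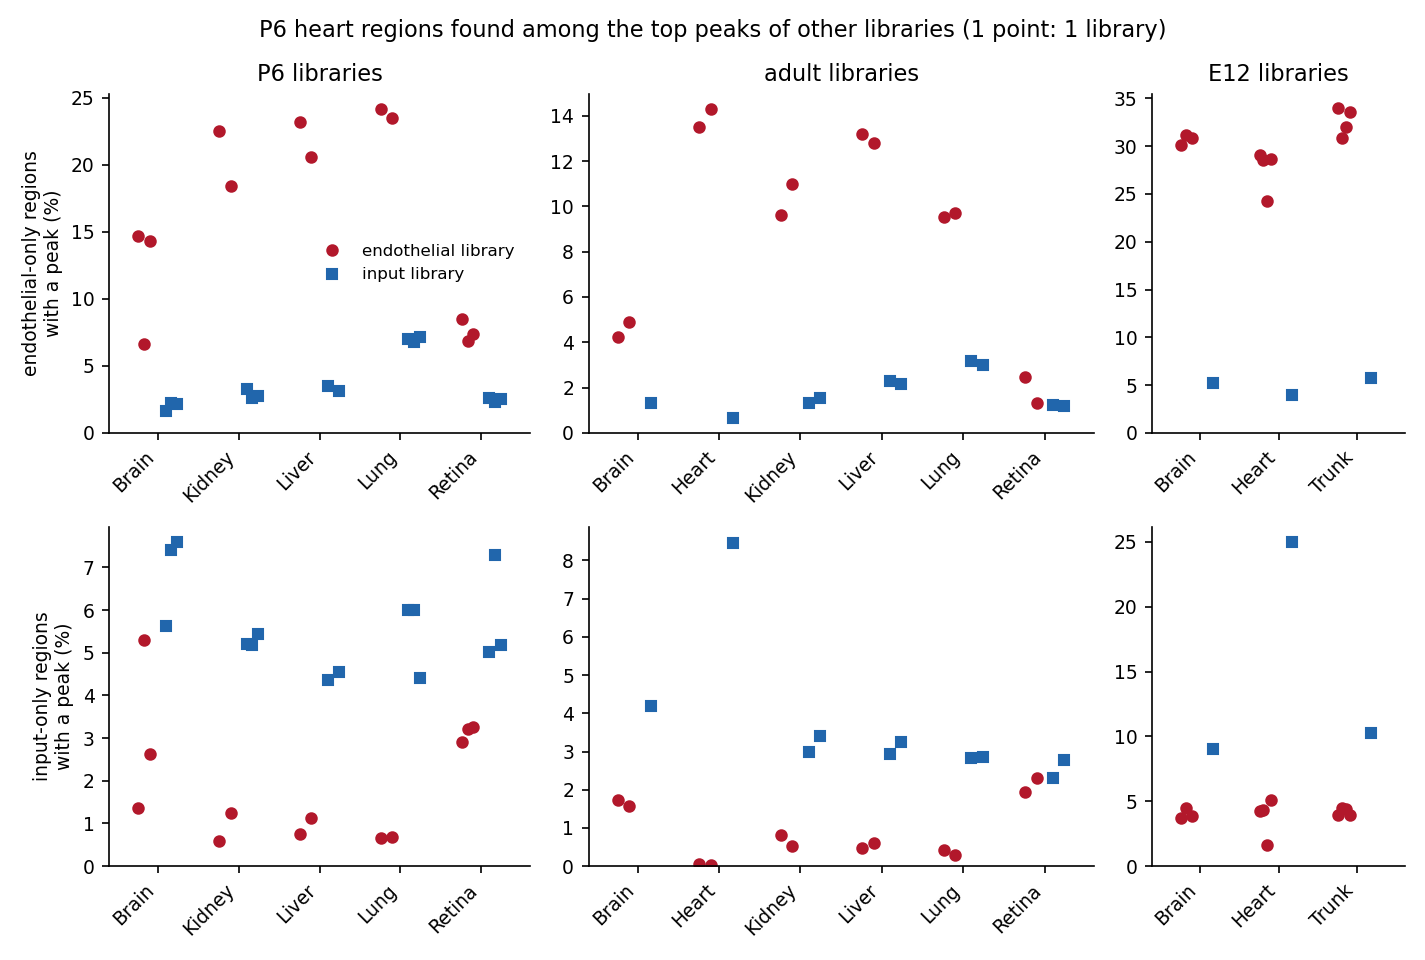
Share of the P6 heart's endothelial-only regions (top row) and input-only regions (bottom row) with a top peak in each library of other organs and ages (1 point a library, red endothelial, blue input; vertical scales differ). At P6 the 2 sources do not overlap within an organ for endothelial-only regions, and the E12 heart input library stands highest for input-only regions, at 25.0%.

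The endothelial-only regions differed in how many other organs' endothelial libraries held them. By a peak in at least 2 endothelial libraries of an organ, 6258 regions, 25.4%, were found in none of the 5 other organs, 4916 in 1 organ, 4237 in 2, 3580 in 3, 2883 in 4 and 2785, 11.3%, in all 5. Of input-only regions 72.8% were in none and 0.161% in all 5, and of regions open in all 4 P6 heart libraries 7.82% and 56.6%. With full lists a peak was present in no endothelial library of any other organ for 3524 endothelial-only regions, 14.3%. Input libraries of other organs held some of these, and 2450 regions, 9.94%, had no peak in any other P6 organ's library of either source. The 3524 were narrower and weaker than those in all 5 organs, with a median width of 388 against 638 bp and a median lower fold of 3.35 against 4.16. The part of peak strength in this count was not tested.

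Regions shared by the endothelial libraries of all 5 organs were nearest to 17 of 27 surface genes, 16 of 23 transcription factor genes and 10 of 16 arterial genes, beside 9.27% of all genes. Such regions were nearest to 5 of 13 capillary, 3 of 8 endocardial and 4 of 13 venous and lymphatic genes. List genes held more endothelial-only regions than most genes. Counted by region, surface, transcription factor and arterial genes had 42 of 194, 36 of 198 and 19 of 104, above the 11.3% of all endothelial-only regions. Capillary, endocardial and venous and lymphatic genes had 6 of 62, 5 of 49 and 5 of 59, below it. All vessel lists together held 105 of the 2785. Prkce had 10 of them, Adgrf5, an adhesion receptor of lung endothelium, 7, and Kdr 6. The one with the highest lower fold lay inside Fhit, a gene at a fragile site, at chr14:10526754-10527219, with 9.47 and 9.44 in the heart. Regions in no other organ's endothelial libraries lay near 6 of 13 capillary genes (Fabp4, Gpihbp1, Meox2, Car4, Pparg and Kcna5), 3 of 8 endocardial genes (Npr3, Cytl1 and Nrg1) and 11 of 27 surface genes, beside 11.5% of all genes. Counted by region these were 12 of 62, 10 of 49 and 16 of 194, and the surface genes then lay below the 14.3% of all endothelial-only regions. By gene, the list with the highest share was that of calcium handling and ion currents, 9 of 17, ahead of epicardial genes, 4 of 8, and venous and lymphatic genes, 6 of 13. They also lay near 6 of 18 cardiac transcription factor genes (Gata4, Gata6, Tbx20, Mef2c, Esrrg and Esrrb), and near 29 of the 136 genes of other heart cells in all. Of the genes just named, Gpihbp1, Kcna5, Mef2c and Esrrg were also nearest to regions shared with all 5 organs. Cdh13, an atypical cadherin, had the most regions in no other organ's endothelial libraries, 11, and Efnb2 had 8. Among those with the highest lower fold was a region between genes at chr8:102945346-102945991, with 9.96 and 8.52, nearest to Cdh11, a mesenchymal cadherin. Counted by region, 10.8% of the 646 endothelial-only regions of vessel genes were in no other organ's endothelial libraries, beside 14.3% of all, and 16.3% were in all 5, beside 11.3%. For the 209 of other heart cells the shares were 20.1% and 9.09%.

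The same regions were looked up in the heart at E12 and in the adult, whose lists differ in length, so the ages are set side by side and not compared. A peak was present in at least 2 of 4 E12 heart endothelial libraries for 71.2% of them and in both adult ones for 22.8%. It was present in the single heart input library for 35.7% at E12 and 16.5% in the adult. Neither age had any endothelial peak at 12.8%. Of input-only regions 22.2% were found at E12 and 0.0724% in the adult by the same endothelial measures, and 68.2% and 43.8% in the input libraries. Regions open in all 4 P6 heart libraries had higher shares, 92.0% and 54.1% by the endothelial measures and 94.7% and 87.0% in the input libraries. Endothelial-only regions shared with all 5 organs were also found at E12 in 94.9% and in the adult in 58.3%, against 46.4% and 12% of those in no other organ's endothelial libraries. The heart input libraries held 46.0% and 43.1% of the shared ones and 25.4% and 7.60% of the others.

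The test over libraries was repeated at both ages. In the adult, with the top 19464 peaks a library, endothelial-only regions had a share of 8.88% ± 4.54 (SD, n = 12) in endothelial and 1.79% ± 0.835 (SD, n = 10) in input libraries. The difference was 7.23 points, higher in 6 of 6 organs, with an exact permutation p of 8.57e-05 (adjusted 0.000171), the smallest that 11664 partitions allow. Adult heart gave the widest gap, 13.2 points, from shares of 13.5% and 14.3% against 0.661% in its 1 input library, and adult retina the narrowest, 0.687 points. With all deposited peaks the difference was 8.43 points with an exact permutation p of 0.0241, and lung was reversed, at −5.33 points from means of 14.5% in endothelial and 19.8% in input libraries. Endothelial libraries were then higher in 5 of 6 organs, with 24.9 points in liver, 12.4 in heart and in kidney, 5.24 in retina and 0.900 in brain. For input-only regions the difference was −3.16 points (exact permutation p = 0.000171, adjusted 0.000257), lower in 6 of 6 organs and −8.42 in the heart. With all deposited peaks this one was −15.7 points, and with the top 15000 peaks endothelial-only regions gave 4.72 and input-only regions −2.05.

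At E12, with the top 39096 peaks in libraries of brain, heart and trunk, endothelial-only regions had a share of 30.3% ± 2.70 (SD, n = 11) in endothelial and 4.98% ± 0.931 (SD, n = 3) in input libraries. The difference was 25.4 points (exact permutation p = 0.010, the smallest of 100 partitions, adjusted 0.010), higher in 3 of 3 organs and not confined to the heart, where it was 23.7 points against 26.9 in trunk and 25.5 in brain. Without the heart or the trunk input library the p was 0.050 and no longer under the threshold of 0.05, with differences of 26.2 and 24.6 points. The difference was 7.71 points with the top 15000 peaks. For input-only regions it was −10.8 points (exact permutation p = 0.010), with 25.0% in the heart's single input library and 9.04% and 10.3% in those of brain and trunk. Without that library the difference was −5.58 points and the exact permutation p 0.050, the smallest then possible and no longer under the threshold. It was −23.7 points with all deposited peaks and −3.25 with the top 15000.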

How the data were processed

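ATAC-seq peak lists were analysed here, 1 for each library; expression data of the series were not used here. Per the file headers, the authors called broad peaks with MACS2 2.1.2 in each library alone, with no control, a shift of -100, an extension of 200 and a q-value limit of 0.05 (broad 0.1). Bowtie2, SAMtools 1.13, Picard, DiffBind 3.2, R 4.1, DESeq2 1.32.0 and the build mm10 are named in the submitters' processing notes. The deposited pileup is a signal not scaled between libraries, the deposited fold is a ratio over local background, and the deposited −log10 p and q values grow with depth.

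From these, equal numbers of top peaks by −log10 q were merged where they shared 1 bp (Python 3.11.15, pandas 2.3.3, numpy 2.4.6). Named regions were the 10 highest by lower −log10 q on each side, the highest of each list gene, and the 5 highest by lower fold among regions in no and in all other organs; named genes had the most regions or belonged to the 17 lists. The members and lists were chosen with earlier results of these data known. Libraries outside the 4 were tested by exact 2-sided permutation within organs, with Benjamini-Hochberg adjustment over 6 tests and a threshold of 0.05. The counting was tested on simulated data. Nothing in the labels says that replicates are separate animals, so p-values measure the spread between libraries. In the 4 P6 heart libraries the replicate differences of the 2 sources had r = -0.00636 over 32643 regions. With 1 difference a source, this cannot show whether replicate numbers pair those libraries. Pairing was not checked in the other libraries. Alternatives were the number of peaks, the overlap, the reach around a gene, leaving out each library, blocking by replicate number and using libraries of 1 read-processing name only. A few genes and regions that met these rules are not reported here.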

Additional observations from a re-analysis of the deposited data

Results flagged for a closer look

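One value stood apart from its group. The share of endothelial-only regions of the P6 heart that held a top peak was 24.3% in E12 heart endothelial library 3, against 28.5%, 28.7% and 29.1% in the other libraries of that group, and its gap to the nearest was 0.889 of the group's range. Its list held 39096 peaks, the fewest at E12 and the number taken from every E12 library. Of 4 groups examined 1 held such a value; chance flags about 1 in 20.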

How the results depend on the processing

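The number of endothelial-only regions was 7718 with the top 20000 peaks, and that of input-only regions 7636; with all deposited peaks the near-equal numbers became 17907 endothelial-only and 39743 input-only regions. Leaving out 1 of the 4 libraries gave 26477 to 31650 endothelial-only and 27069 to 31492 input-only regions. Within 1 kb of a start, 29 vessel genes had an endothelial-only region and 15 genes of other heart cells an input-only one, a narrower reach by construction. Leaving out 1 library gave 94 vessel genes each time, with 40.3 to 44.3% of all genes, and 93 to 100 other genes, with 42.8 to 45.5%. With any region within 50 kb of a gene the background rose more than the counts. It gave 92 vessel genes beside 61.7% of all genes and 115 other genes beside 64.6%. With the nearest gene of any type there were 78 beside 26.8% and 77 beside 28.2%.

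The differences between sources, averaged over organs, kept their sign under every alternative run, while adult lung alone was -5.33 points for endothelial-only regions with all deposited peaks against 6.54 with the top 19464. Leaving out 1 library gave 13.2 to 14.1 and -4.05 to -3.66 points at P6, 6.02 to 8.02 and -3.28 to -2.11 in the adult, and 24.6 to 26.2 and -13.7 to -5.58 at E12, for endothelial-only and input-only regions. At E12 the exact permutation p rose to 0.050, no longer under the threshold, without the heart input library (26.2 and -5.58) and without the trunk input library (24.6 and -13.1), since fewer partitions remain. With the replicate block, over 10 pairs, the differences were 11.4 and -3.87 at P6 and 6.95 and -2.69 in the adult, each with an exact p of 0.00195, and no call changed. At P6 no liver endothelial and input libraries shared a replicate number, so the block left liver out and covers fewer organs than the main run. The block was not run at E12. Libraries of 1 read-processing name, an alternative chosen after seeing the data, gave 14.1 and -3.92 at P6 and 6.53 and -3.33 in the adult.

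The endothelial lists were taken to a lower −log10 q than the input lists, and how that bears on weak regions was not tested. Endothelial library 2 kept 31.3 M tags and had 72110 peaks, and input library 2 kept 28.4 M and had 98672. Input library 1 had both the most tags, 46.2 M, and the longest list, 106111 peaks. The part of depth in the length of the lists was not tested.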
